A study of Mus musculus with 16 samples.

Results

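The genes described here fold, check and export new proteins in the endoplasmic reticulum (ER), or belong to the unfolded protein response that adjusts this machinery. They number 41 of the 24964 gene symbols in the count table, and all 41 were among the 15385 genes that passed a filter on low counts. They were picked by symbol and not by a threshold. By role they comprise 11 chaperones and partners, 8 genes of disulfide formation, 6 stress sensors with their transcription factor Xbp1, 8 genes of degradation, and 8 genes of translocation and signal peptide cleavage. The set was drawn up with earlier results of these data known. Ero1lb was picked for the way its level differed between the 4 groups, so its values are given as a description without a test, and counts of genes that passed the test are over the other 40.

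RNA was sequenced from mouse stomach, with 4 libraries in each of 4 groups. WT-S and WT-A were wild-type C57BL/6 mice, and TTP-S and TTP-A were congenic C57BL/6 mice with the genotype TTPΔARE. All were female and aged 8 weeks. This allele of Zfp36 has lost its AU-rich element. Zfp36 is the gene of tristetraprolin (TTP), a protein that promotes the decay of transcripts with such elements. Mice of the A groups had adrenalectomy (ADX), that is, loss of both adrenal glands, named in the labels as the inducer of gastric inflammation. The treatment label of the S groups gives spasmolytic polypeptide-expressing metaplasia (SPEM), a lineage of mucous cells in injured glands, but does not say whether these mice were operated on, so S is used only as a group name. The material was a biopsy of 4 mm from the corpus at the lesser curvature. The labels do not say that the libraries of a group came from separate mice, so p-values measure only the spread between these libraries.

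Secreted and membrane proteins enter the ER through the Sec61 channel, lose their signal peptide, and fold with the help of chaperones and of enzymes that form disulfide bonds. Proteins that fail to fold are retrotranslocated and degraded. When unfolded proteins build up, the sensors IRE1 (Ern1, Ern2), PERK (Eif2ak3) and ATF6 signal to the nucleus, where XBP1 and cleaved ATF6 raise the transcription of many of the genes named here. In the stomach corpus, the zymogen-secreting chief cells hold a dense rough ER.

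Total counts per library ranged from 17453930 to 25849472. The targeted gene matched the labels: Zfp36 averaged 122 ± 6.11 CPM (TTP-S) and 123 ± 9.54 (TTP-A), against 62.0 ± 4.73 (WT-S) and 72.0 ± 11.9 (WT-A), as mean ± SD of n = 4. CPM (counts scaled to a library total of 1000000) were adjusted by the trimmed mean of M-values (TMM). WT-A 3 and WT-A 4 stood apart from the other libraries, because GC-rich transcripts read high and GC-poor ones low in both (over 11547 genes, Spearman rho of a gene's deviation from its median with GC content was 0.72 and 0.74, and at most 0.30 in absolute value elsewhere). Since both belong to WT-A, the counts and the called genes that involve WT-A are also given for the 14 libraries without it, in which WT-A has 2. Corpus markers were present, with summed CPM of 48992 to 153390 for the chief cell list (6 of 7 listed genes in the table, Lipf at 0 in every library) and 15993 to 23920 for the parietal list.

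The summed share of the 41 genes in all counts was 0.784% ± 0.0618 in WT-S and 0.785% ± 0.0510 in WT-A, as mean ± SD of n = 4. TTP-S had 0.780% ± 0.0289 and TTP-A 0.823% ± 0.0213. The near-equal WT means hide a spread between libraries. WT-A 1 and WT-A 2 were at 0.834% and 0.823%, and the pair WT-A 3 and WT-A 4 at 0.751% and 0.732%. WT-S 1 was at 0.876%, against 0.746% to 0.761% in the rest of WT-S. Per kilobase of the longest transcript, the leading genes in WT-S were the disulfide isomerase Pdia2 (441 ± 43.3 CPM per kilobase), the calcium-binding chaperone Calr (386 ± 34.8) and the disulfide isomerase P4hb (346 ± 13.1). The sensor Ern1 (6.82 ± 0.472) and the retrotranslocation factor Derl3 (7.20 ± 0.188) were lowest. On this scale Ern2, the IRE1 gene of mucus-secreting epithelia, was at 63.1 ± 7.36 in WT-S, above Ern1. The order depends on the length used, since with the median transcript length P4hb led and Pdia2 was the fourth highest.

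**Figure D1:**
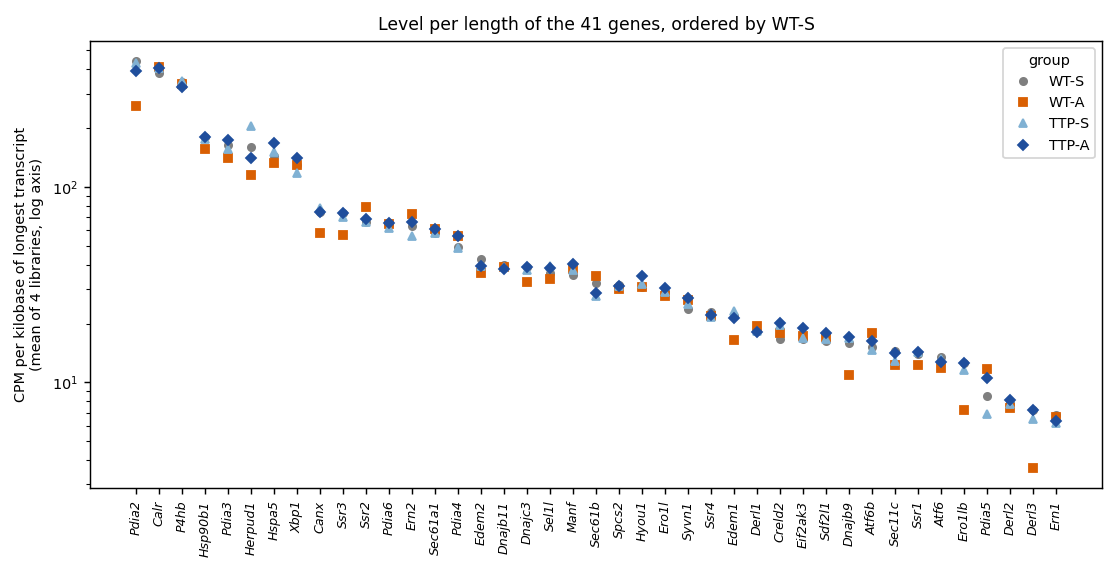
Mean level per length of the 41 genes on a log axis, in CPM per kilobase of the longest transcript, with a point for each group (n = 4 libraries) and genes ordered by WT-S. Pdia2 leads at 441 CPM per kilobase in WT-S and lies at 259 in WT-A, while most genes hold nearly the same level in all 4 groups.

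Stretches before the gene start are shown for the genes on which the results turn, with Hspa5 as the textbook target of the response. RefSeq windows (build GRCm38.p6), from 250 bases before to 50 bases after the start, matched 33 of the 41 genes. On both strands, 3 stress motifs were searched: the ER stress element ERSE (CCAAT, 9 bases, CCACG), ERSE-II (ATTGG, 1 base, CCACG) and the core of the unfolded protein response element, TGACGTG. ERSE was found in 10 of the 33 genes (Calr, Canx, Creld2, Derl3, Dnajc3, Ero1lb, Hsp90b1, Hspa5, Pdia6 and Syvn1) and in 0.119% of all 32851 windows. ERSE-II was found in Dnajb11 and Herpud1 and in 0.0365% of all windows, and the TGACGTG core in Hspa5 and in 2.01% of all windows. No matches overlapped, and 21 of the 33 genes held no exact match to any of the 3. The genes were picked as members of the response that these motifs serve, so the shares are a description and not a test. Each stretch below is the 250 bases before the start, read along the gene's strand, with matches in capitals. A match on the opposite strand appears as its reverse complement. The positions are chr2:34771840-34772089 on the plus strand for Hspa5, chr8:94386179-94386428 on the plus strand for Herpud1, chr10:75893148-75893397 on the plus strand for Derl3, chr13:12565633-12565882 on the plus strand for Ero1lb (Ero1b in RefSeq) and chr17:26199088-26199337 on the minus strand for Pdia2.
Hspa5: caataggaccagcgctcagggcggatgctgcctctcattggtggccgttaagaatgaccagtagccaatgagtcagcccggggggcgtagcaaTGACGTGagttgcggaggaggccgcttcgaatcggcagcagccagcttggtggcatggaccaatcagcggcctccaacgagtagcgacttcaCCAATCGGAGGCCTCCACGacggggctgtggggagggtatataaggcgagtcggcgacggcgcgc
Herpud1: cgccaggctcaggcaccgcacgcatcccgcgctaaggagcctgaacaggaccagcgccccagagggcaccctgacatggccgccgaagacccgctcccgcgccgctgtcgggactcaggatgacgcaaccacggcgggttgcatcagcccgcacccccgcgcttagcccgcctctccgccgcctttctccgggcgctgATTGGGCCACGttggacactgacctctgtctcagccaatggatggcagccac
Derl3: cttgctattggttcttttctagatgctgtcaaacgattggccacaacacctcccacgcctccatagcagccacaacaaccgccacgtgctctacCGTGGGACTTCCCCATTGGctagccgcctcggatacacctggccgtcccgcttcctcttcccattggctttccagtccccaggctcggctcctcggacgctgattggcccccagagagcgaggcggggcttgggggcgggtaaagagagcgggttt
Ero1lb: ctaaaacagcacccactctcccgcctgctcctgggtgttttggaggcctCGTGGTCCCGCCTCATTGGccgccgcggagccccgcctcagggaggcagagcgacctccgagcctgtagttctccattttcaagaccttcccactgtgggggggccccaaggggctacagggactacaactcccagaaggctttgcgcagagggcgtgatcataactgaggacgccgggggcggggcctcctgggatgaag
Pdia2: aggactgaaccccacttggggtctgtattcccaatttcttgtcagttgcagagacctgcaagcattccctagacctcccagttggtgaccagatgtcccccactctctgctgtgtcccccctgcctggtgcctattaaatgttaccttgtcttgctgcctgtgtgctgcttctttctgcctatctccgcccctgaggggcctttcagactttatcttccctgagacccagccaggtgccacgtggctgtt
Read on the strand of the motif, the ERSE was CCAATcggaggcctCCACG in Hspa5, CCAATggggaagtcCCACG in Derl3 and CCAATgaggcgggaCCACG in Ero1lb. The ERSE-II of Herpud1 was ATTGGgCCACG. The stretch of Pdia2 held no match. A match describes letters in this window and not a bound site. Only exact matches were searched, so near matches in these stretches were neither counted nor marked.

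In wild-type mice, the degradation genes Derl3, Herpud1, Edem1 and Edem2 and the isomerase Pdia2 were lower in WT-A than in WT-S. Of the 40 tested genes, 10 were called, that is, had an adjusted p under 0.05 by edgeR's quasi-likelihood test with Benjamini-Hochberg adjustment over all genes. Derl3, Pdia2, Herpud1, Edem1, Canx, Dnajc3, Edem2 and Atf6 were lower, and Pdia5 and Ssr2 were higher. This share, 25%, is set beside 18.8% of all genes called (9.8% higher, 8.99% lower). The median log2 difference was -0.054 over the 40 genes and 0.0094 over all genes. Without the pair set apart by GC content, 5 genes were called, all lower (Derl3, Pdia2, Herpud1, Edem2 and Edem1), which is 12.5% beside 10.5% of all genes (5.68% lower). By role, 4 of the 8 degradation genes were called in each of these fits. Of the 11 chaperones and partners, 2 were called in 16 libraries, which is 18.2% and close to the share of all genes, and 0 in 14 (edgeR, 1 at an unadjusted p under 0.05, beside 27.1% of all genes). Leaving out a library moved the count of 10 to 3 without WT-S 2, 4 without WT-A 3, 5 without WT-S 4 or WT-A 4, and 16 without WT-A 1. The share of all genes called moved too, from 8.14% without WT-S 2 to 32.4% without WT-A 1. Derl3, Herpud1 and Edem1 were called in all 8 of these fits. When WT-S and WT-A alone were fitted, Derl3 and Herpud1 were called and the other 8 were not, beside 3.98% of all genes.

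In TTPΔARE mice, the same comparison of A with S called 3 of the 40 genes: Herpud1 was lower, and Pdia5 and Xbp1 were higher in TTP-A. That is 7.5%, beside 2.9% of all genes (1.55% higher, 1.35% lower). The same 3 were called without the pair, beside 6.33% of all genes. The count fell to 1 in 7 of the 8 fits that left out a library of TTP-S or TTP-A (beside 0.39% to 1.37% of all genes), all but that without TTP-A 2 (4 called, beside 6.14% of all genes). The median log2 difference was 0.052 over the 40 genes and -0.0010 over all genes.

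**Figure D2:**
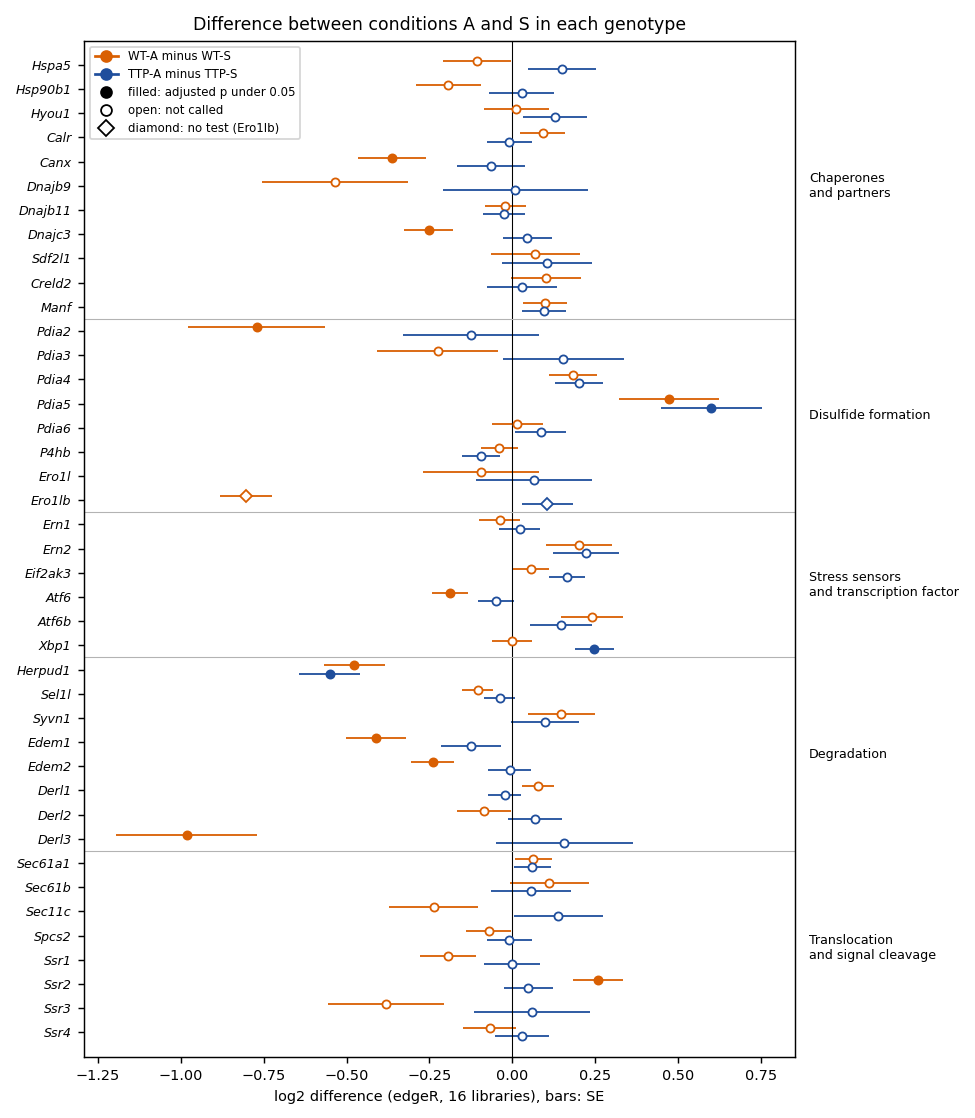
Log2 difference between A and S for each of the 41 genes in both genotypes, from the edgeR fit of 16 libraries, with the SE as a bar. Filled circles mark genes with an adjusted p under 0.05 and diamonds mark Ero1lb, which was not tested. Derl3 (-0.98) and Pdia2 (-0.77) fell in WT-A, and Herpud1 lay low in both genotypes (-0.48 and -0.55).

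Herpud1 encodes a membrane protein that organises the ubiquitin ligase complex of ER degradation. Its level was 302, 309, 305 and 329 CPM in WT-S and 207, 201, 230 and 257 in WT-A. In TTPΔARE mice it was 356, 466, 389 and 400 in TTP-S and 265, 250, 312 and 272 in TTP-A. In both genotypes every A library lay below every S library, and the highest levels of all were in TTP-S. The log2 difference between A and S was -0.48 in WT (SE 0.092, edgeR adjusted p = 0.00434; 14 libraries -0.61, adjusted p = 0.00333). It was -0.55 in TTPΔARE mice (SE 0.092, adjusted p = 0.00733). Herpud1 kept its call in all 8 fits that left out a library in each genotype. The interaction, that is, the A minus S difference of TTPΔARE mice minus that of WT, was -0.07 (SE 0.13, adjusted p = 0.798; 14 libraries 0.06, adjusted p = 0.9).

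Derl3 encodes a derlin, a component of the channel that moves misfolded proteins out of the ER, found mainly in secretory cells. Its level was 9.85, 9.37, 9.29 and 9.52 CPM in WT-S and 4.22, 3.38, 4.41 and 7.35 in WT-A. TTP-S had 8.91, 8.73, 7.07 and 9.64 CPM, and TTP-A had 7.59, 11.6, 12.0 and 7.13. WT-S and WT-A did not overlap, and WT-A 4 was the highest of WT-A. The difference in WT was -0.98 (SE 0.21, edgeR adjusted p = 0.00737) and kept its call in all 8 fits without a library. Without the pair it was -1.32 (adjusted p = 0.0031). In TTPΔARE mice it was 0.16 (SE 0.21, adjusted p = 0.819). The related Derl1 and Derl2 had differences of 0.08 and -0.09 in WT and were not called (adjusted p = 0.262 and 0.454; 14 libraries 0.06 and 0.07). Whether Derl3 differed from them in response was not tested.

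Edem1 and Edem2 encode lectin-like proteins that direct misfolded glycoproteins to degradation. Edem1 was at 129, 140, 129 and 133 CPM in WT-S and 118, 109, 83.4 and 89.4 in WT-A, with no overlap. Its difference was -0.41 (SE 0.090, edgeR adjusted p = 0.00794), and -0.23 without the pair (adjusted p = 0.0429). WT-A 3 and WT-A 4 were the lowest of the series in Edem1. TTP-S had 136, 148, 136 and 143 CPM of it, and TTP-A had 126, 129, 142 and 120. Edem2 was at 94.99, 107, 93.3 and 97.9 CPM in WT-S and 75.6, 77.2, 89.1 and 90.7 in WT-A, where the pair lay closer to WT-S. Its difference was -0.24 (SE 0.064, adjusted p = 0.0197), and -0.36 without the pair (adjusted p = 0.00259). The call was lost without WT-S 2 (adjusted p = 0.0744). TTP-S had 94.7, 90.3, 89.3 and 88.4 CPM of Edem2, and TTP-A had 87.4, 88.3, 91.5 and 93.2, with overlap. In TTPΔARE mice the differences were -0.13 for Edem1 and -0.01 for Edem2 (adjusted p = 0.581 and 0.976).

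The other degradation genes were the adaptor Sel1l, the ubiquitin ligase Syvn1, Derl1 and Derl2. None was called between A and S in either genotype. Sel1l was at 224, 230, 227 and 230 CPM in WT-S and 225, 217, 210 and 196 in WT-A. In TTP-S it was at 241, 246, 251 and 256 CPM. Syvn1 was at 94.0 to 99.6 CPM in WT-S and 91.5 to 133 in WT-A, with its highest values in the pair.

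Pdia2 is the disulfide isomerase best known from the exocrine pancreas. Its level was 665, 845, 778 and 751 CPM in WT-S and 325, 300, 437 and 721 in WT-A. In TTPΔARE mice it was 811, 730, 682 and 739 in TTP-S and 558, 754, 780 and 623 in TTP-A. WT-A 4 lay within the range of WT-S, and the other WT-A libraries lay below every other library of the series. The WT difference was -0.77 (SE 0.21, edgeR adjusted p = 0.0202; 14 libraries -1.28, adjusted p = 0.000258). The call was lost without WT-S 2 (adjusted p = 0.0625) and without WT-A 3. In TTPΔARE mice the difference was -0.13 (SE 0.21, adjusted p = 0.865).

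Pdia5, another disulfide isomerase, was the gene of the set with the largest rise in both genotypes. WT-S libraries had 20.5, 12.7, 13.2 and 15.1 CPM, and WT-A libraries 20.6, 20.7, 23.0 and 20.6. TTP-S libraries had 12.0, 12.3, 11.6 and 14.3 CPM, and TTP-A libraries 24.6, 14.8, 17.2 and 19.2. A lay above S without overlap in both, but WT-S 1 lay just under WT-A. The differences were 0.47 in WT (SE 0.15, edgeR adjusted p = 0.0407; 14 libraries 0.44, adjusted p = 0.142). The TTPΔARE value was 0.60 (SE 0.15, edgeR adjusted p = 0.0485; 14 libraries 0.0374). The WT call was lost in 5 of 8 fits without a library (highest adjusted p 0.123, without WT-S 2) and the TTPΔARE call in 7 of 8 (highest 0.191, without TTP-A 1). WT-S 1 and TTP-A 1, the highest libraries of their groups, were also highest in Muc6, a mucous neck cell mucin (2358 and 3279 CPM, against 464 to 779 and 617 to 1964 in the rest of their groups). Its part in the result was not tested.

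Of the other isomerases and oxidases, none was called in these comparisons by edgeR in 16 libraries. Pdia4 was at 141, 110, 110 and 111 CPM in WT-S and 134, 130, 138 and 133 in WT-A, with 121, 117, 110 and 122 for TTP-S and 136, 130, 142 and 131 for TTP-A. Its differences were 0.18 and 0.20 (edgeR adjusted p = 0.0863 and 0.161). In WT, Pdia4 was called by limma voom (beside 19.5% of all genes), with loess offsets on GC content (16.5%) and without WT-S 1 (19.5%). In TTPΔARE mice it was called by limma voom (beside 15.2%) and when TTP-S and TTP-A alone were fitted (7.36%). Pdia3, P4hb, Pdia6 and the oxidase Ero1l had differences of -0.22 to 0.01 in WT and -0.09 to 0.15 in TTPΔARE mice.

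Ero1lb is the second ER oxidase, which passes electrons from disulfide isomerases to oxygen and is enriched in secretory cells. Its level was 49.9, 57.3, 53.7 and 53.3 CPM in WT-S and 32.2, 31.4, 28.2 and 31.2 in WT-A. TTP-S had 54.0, 48.1, 48.6 and 46.4 CPM, and TTP-A had 48.5, 54.5, 60.9 and 48.3. All 4 WT-A libraries, the pair included, lay well below the other 12, whose ranges overlapped one another. The log2 difference between A and S was -0.80 in WT (SE 0.078; 14 libraries -0.75) and 0.10 in TTPΔARE mice (SE 0.077). TTP-A exceeded WT-A by 0.79 (SE 0.078), and the interaction was 0.91 (SE 0.11; 14 libraries 0.85). Because these values chose the gene, they carry no test. Its paralog Ero1l was at 148, 110, 127 and 137 CPM in WT-S and 161, 153, 95.03 and 79.3 in WT-A, with a difference of -0.09 (SE 0.18), and 0.27 without the pair (adjusted p = 0.102).

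**Figure D3:**
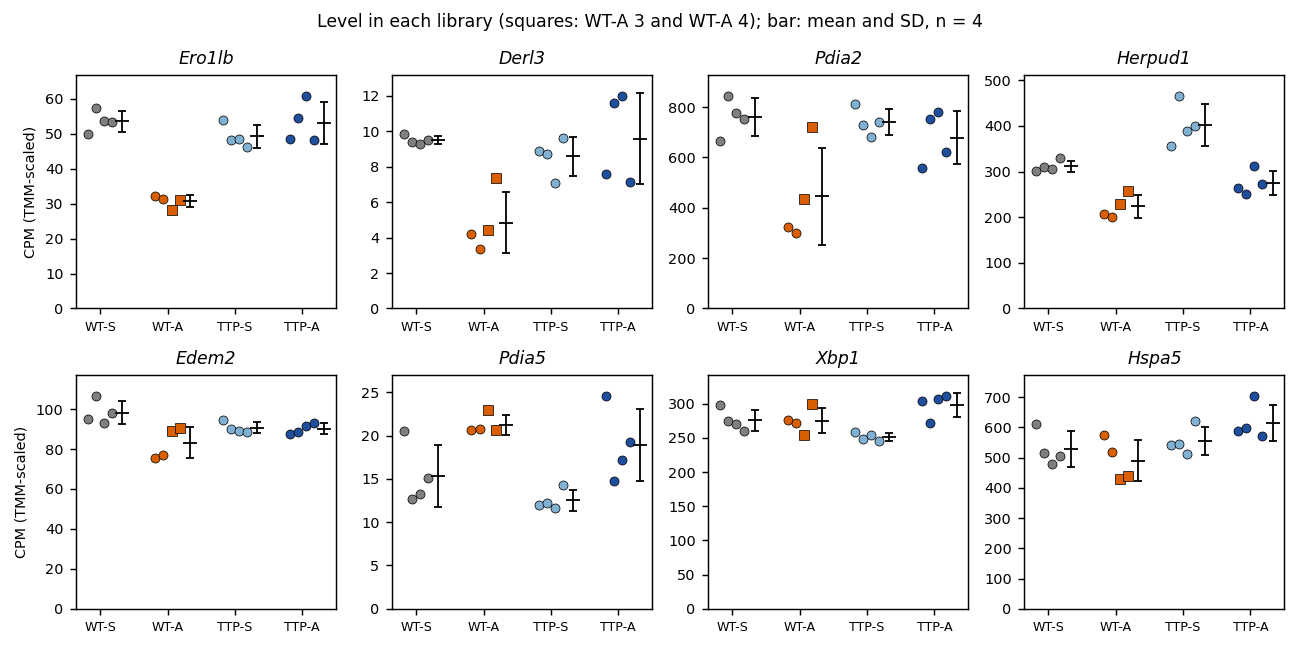
Level in CPM of selected genes in each library, by group, with the mean and SD of 4 libraries as a bar and squares for WT-A 3 and WT-A 4. In Ero1lb the 4 WT-A libraries (28.2 to 32.2 CPM) sit apart from all others, in Herpud1 both A groups lie below their S groups, and in Pdia2 WT-A 4 (721 CPM) lies with WT-S.

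Of the 11 chaperones and partners, 9 passed the test in neither genotype. In WT 2 were called (18.2%, close to the 18.8% of all genes), and in TTPΔARE mice 0 (beside 2.9%). Hspa5 (BiP), the ER member of the Hsp70 family, was at 612, 516, 478 and 505 CPM in WT-S and 575, 517, 429 and 440 in WT-A, with 543, 544, 513 and 620 for TTP-S and 589, 599, 703 and 570 for TTP-A. The groups overlapped, and the differences were -0.11 and 0.15 (edgeR adjusted p = 0.465 and 0.557). Hsp90b1, Hyou1, Calr, Dnajb11, Sdf2l1, Creld2 and Manf were not called in either genotype, with differences of -0.19 to 0.10 in WT and -0.03 to 0.13 in TTPΔARE mice.

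The lectin chaperone Canx and the Hsp70 partner Dnajc3 were called lower in WT-A, but neither call held without the pair. Canx was at 320, 327, 317 and 317 CPM in WT-S and 304, 279, 204 and 208 in WT-A. Its difference was -0.36 (SE 0.10, edgeR adjusted p = 0.0245), and -0.13 without the pair (adjusted p = 0.161). TTP-S had 335, 327, 323 and 357 CPM of Canx, and TTP-A had 305, 339, 332 and 308. Dnajc3 was at 214, 203, 191 and 194 CPM in WT-S and 193, 175, 149 and 155 in WT-A. Its difference was -0.25 (SE 0.073, adjusted p = 0.0271), and -0.12 without the pair (adjusted p = 0.245). TTP-S had 186, 197, 192 and 202 CPM of Dnajc3, and TTP-A had 198, 200.1, 214 and 189, with overlap. Both calls were also lost in 5 of the 8 fits without a library. Dnajb9, an Hsp70 partner induced through XBP1, was at 39.1 and 36.1 CPM in WT-A 1 and WT-A 2 and at 16.9 and 15.7 in the pair, against 42.2, 38.5, 37.6 and 38.4 in WT-S. TTP-S had 41.6, 40.2, 41.1 and 43.3 CPM of it, and TTP-A had 42.8, 40.1, 46.5 and 37.7. Its difference was -0.53 (SE 0.22, adjusted p = 0.0937), and -0.05 without the pair (adjusted p = 0.694).

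Among the sensors, Xbp1 was at 259, 249, 254 and 246 CPM in TTP-S and 304, 273, 307 and 311 in TTP-A, with no overlap. The difference was 0.25 (SE 0.060, edgeR adjusted p = 0.0385; 14 libraries 0.0121). The call was lost in 7 of the 8 fits without a library, with a highest adjusted p of 0.136. In WT its level was 298, 275, 270 and 261 CPM in WT-S and 277, 271, 255 and 299 in WT-A, with a difference of -0.00 (adjusted p = 0.988; 14 libraries -0.01). The interaction was 0.25 (SE 0.084, adjusted p = 0.21; 14 libraries 0.25, adjusted p = 0.19). These counts do not separate spliced from unspliced Xbp1 transcripts.

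Atf6 was at 91.6, 105, 95.2 and 97.4 CPM in WT-S and 90.9, 88.4, 82.6 and 79.95 in WT-A. Its difference was -0.19 (SE 0.054, edgeR adjusted p = 0.0269), and -0.12 without the pair (adjusted p = 0.168). The call was lost in 4 of the 8 fits without a library. TTP-S had 95.8, 91.2, 98.1 and 95.99 CPM, and TTP-A had 90.02, 91.9, 93.5 and 92.9. Ern1, Ern2, Eif2ak3 and Atf6b were not called in either genotype. Ern2 was at 212, 159, 186 and 190 CPM in WT-S and at 200, 202, 232 and 223 in WT-A. TTP-S had 153, 170, 171 and 174 CPM, and TTP-A had 227, 161, 187 and 204. Its differences were 0.20 and 0.22 (adjusted p = 0.153 and 0.28).

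Of the translocation genes, only Ssr2, a subunit of the translocon-associated complex, was called, in WT. It was at 88.5, 79.3, 77.4 and 69.8 CPM in WT-S and 87.4, 85.4, 97.3 and 106 in WT-A, so the groups overlapped and the pair was highest. Its difference was 0.26 (SE 0.074, edgeR adjusted p = 0.0273), and 0.14 without the pair (adjusted p = 0.21). The call was lost in 5 of the 8 fits without a library. TTP-S had 80.05, 75.3, 78.6 and 79.9 CPM of Ssr2, and TTP-A had 78.4, 82.4, 82.5 and 81.1. Ssr3, of the same complex, was at 228 and 214 CPM in WT-A 1 and WT-A 2 but at 117 and 112 in the pair. Its difference was -0.38 (SE 0.18, adjusted p = 0.129), and 0.02 without the pair. The channel subunits Sec61a1 and Sec61b and the signal peptidase subunits Sec11c and Spcs2 were not called in either genotype.

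**Figure D4:**
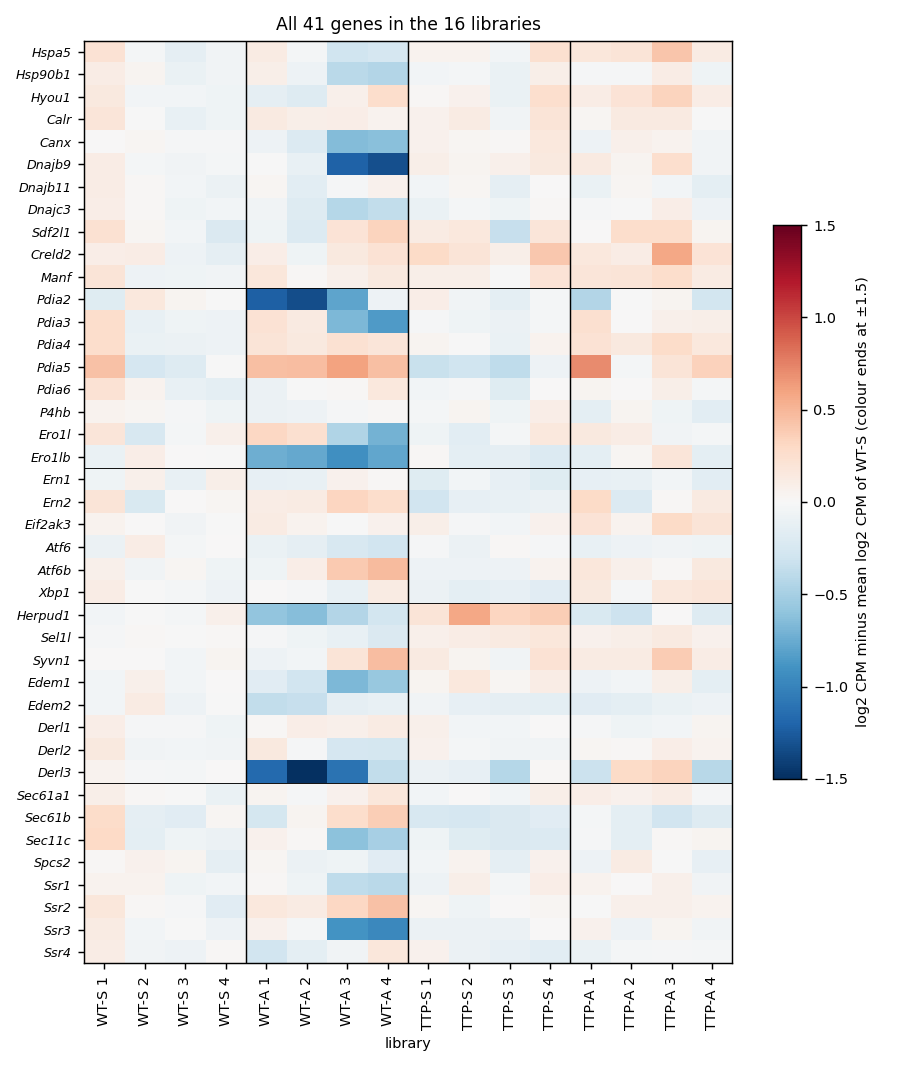
Log2 CPM of all 41 genes in the 16 libraries relative to the mean of WT-S, with the colour scale ending at ±1.5 and genes grouped by role. WT-A 3 and WT-A 4 share a column pattern, with Dnajb9, Ssr3 and Pdia3 low, that WT-A 1 and WT-A 2 lack, while Ero1lb is low in all 4 WT-A libraries.

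Across the 41 genes, the difference of the pair from WT-A 1 and WT-A 2 followed transcript GC content, which ran from 40.6% to 60.3%. The Spearman rho was 0.90 over the 41 genes and 0.67 over 15282 genes, as a description of these 4 libraries. Dnajb9 lay lower in the pair by a log2 of -1.20, Ssr3 by -0.95 and Pdia3 by -0.94. Pdia2 was higher by 0.85 and Derl3 by 0.58. Ero1lb, at -0.10, was nearly level between them.

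**Figure D5:**
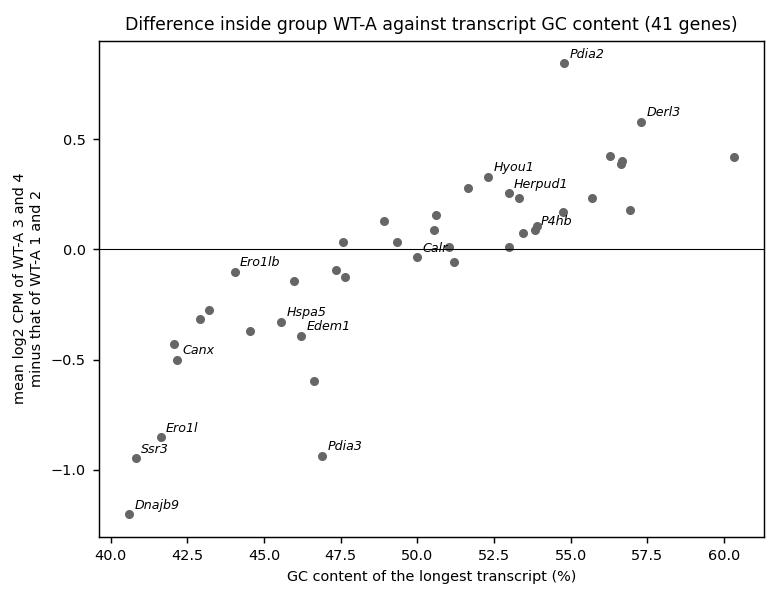
Mean log2 CPM of WT-A 3 and WT-A 4 minus that of WT-A 1 and WT-A 2 against the GC content of the longest transcript (%), with a point for each of the 41 genes. The points rise from Dnajb9 (-1.20) at low GC content to Pdia2 (0.85) and Derl3 (0.58) at higher GC content.

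Between genotypes in condition S, no gene of the set was called (edgeR, 0 of 40, beside 0.0325% of all genes, and 0.422% of all genes in 14 libraries, again with 0 of 40). At an unadjusted p under 0.05 there were 5, beside 7.49% of all genes, and the DESeq2 Wald test and limma voom called 1 each, Herpud1 in both. Herpud1 was higher in every TTP-S library than in any WT-S library (log2 0.37, SE 0.092, edgeR adjusted p = 0.203; 14 libraries 0.0602). The next largest differences were in Pdia5 (-0.29), Creld2 (0.24), Sec61b (-0.22) and Sec11c (-0.17), with adjusted p of 0.612 to 0.893. Creld2, a stress-induced isomerase-like protein, was at 24.4, 24.6, 21.5 and 20.6 CPM in WT-S and 27.7, 26.0, 24.2 and 30.1 in TTP-S. It was at 24.3, 21.7, 25.2 and 26.5 CPM in WT-A and 25.4, 24.4, 34.0 and 26.3 in TTP-A. Sec61b was at 28.1, 21.1, 20.6 and 23.8 CPM in WT-S and 19.7, 19.6, 20.1 and 20.7 in TTP-S. WT-A had 19.3, 24.0, 27.8 and 30.04 CPM of Sec61b, with the pair highest, and TTP-A had 22.7, 21.0, 19.1 and 20.4. Sec11c was at 70.9, 52.0, 55.2 and 54.1 CPM in WT-S and 55.2, 51.0, 49.6 and 50.01 in TTP-S, with WT-S 1 apart from its group. WT-A had 60.3, 58.2, 37.5 and 40.8 CPM of Sec11c, with the pair lowest, and TTP-A had 56.8, 52.0, 58.4 and 59.2.

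In condition A, 4 of the 40 genes were called higher in TTP-A than in WT-A and none lower, which is 10% beside 5.17% of all genes (2.87% higher, 2.3% lower). They were Derl3 (log2 0.99, SE 0.21, edgeR adjusted p = 0.0232), Edem1 (0.37, SE 0.090, 0.0327), Canx (0.37, SE 0.10, 0.0493) and Sel1l (0.19, SE 0.047, 0.0321). When WT-A and TTP-A alone were fitted, none of the 4 was called (edgeR adjusted p = 0.142 to 0.217), and 1 of all 15385 genes was. Without the pair, 4 were called, all higher, beside 1.81% of all genes (1.27% higher), but Derl3 alone was called in both fits. The value of Derl3 there was 1.33 (adjusted p = 0.01), while Edem1, Canx and Sel1l were at 0.18, 0.13 and 0.13 (adjusted p = 0.141, 0.218 and 0.115). The others called there were Pdia2 (1.12, adjusted p = 0.00142), Herpud1 (0.43, 0.0402) and Edem2 (0.24, 0.0422). When GC content was corrected by loess offsets in 16 libraries, 6 were called, beside 4.48% of all genes. They were Derl3, Edem1, Sel1l, Pdia2, Herpud1 and Edem2, and so not Canx. By limma voom 5 were called, the same without Edem1, beside 5.17% of all genes. Leaving out a library ended the call of Derl3 in 3 of 8 fits, namely without WT-A 3, TTP-A 2 or TTP-A 3. It ended those of Edem1, Canx and Sel1l in 6 of 8, that is, without WT-A 3, WT-A 4 or any TTP-A library. The count itself was 14 without WT-A 1, 7 without WT-A 2, 1 without TTP-A 1 or TTP-A 4, and 0 without WT-A 3, TTP-A 2 or TTP-A 3. The share of all genes called ran from 0.585% without WT-A 3 to 20.8% without WT-A 1. Sel1l was at 238, 243, 250 and 238 CPM in TTP-A, above every WT-A library. Among the 40 tested genes, Dnajb9 had the second largest difference after Derl3, 0.63 (SE 0.22, adjusted p = 0.0912), and 0.15 without the pair (0.292). These comparisons share the WT-A libraries with the WT comparison above and are not separate evidence of it.

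The test of whether the response to A differed between genotypes called none of the 40 genes by edgeR in 16 libraries, beside 0.0585% of all genes. At an unadjusted p under 0.05 there were 6, beside 15.2% of all genes. The DESeq2 Wald test called 1 (Derl3) and limma voom called 3 (Derl3, Edem2 and Pdia2). For Derl3 the interaction was 1.14 (SE 0.30, edgeR adjusted p = 0.13) and for Pdia2 0.65 (SE 0.29, adjusted p = 0.312). Without the pair both were called, beside 0.286% of all genes, at 1.47 (adjusted p = 0.0275) and 1.15 (adjusted p = 0.00711). Both were also called when WT-A 4 alone was left out (adjusted p = 0.0259 for Derl3 and 0.039 for Pdia2, beside 0.273% of all genes), and Dnajc3 alone when WT-A 1 was (beside 1.5%). When GC content was corrected by loess offsets in all 16 libraries, none of the 40 genes was called, beside 0.136% of all genes.

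Some chief cell transcripts were lower and 1 was higher in WT-A than in WT-S. In bulk tissue, fewer cells of a type and less RNA per cell cannot be told apart. The summed chief cell list had a median of 128562 CPM in WT-S (78569 to 153390) and 60942 in WT-A (48992 to 103711). TTP-S had 131544 (127236 to 134316), and TTP-A had 115591 (93824 to 143706). Of its 5 tested genes, Pgc, Gif and Chia1 were called lower in WT-A than in WT-S (log2 -0.82, -0.68 and -1.65) and Pga5 higher (0.76). In 14 libraries they were at -1.23, -0.998, -1.64 and 0.57 and were called as well. The other tested gene, Bhlha15, was at -0.28 (edgeR adjusted p = 0.219) and was called lower in 14 libraries (-0.58, adjusted p = 0.0235). Library by library, the pepsinogen Pgc was at 51563, 46389, 63478 and 99333 CPM in WT-A. WT-A 4 was thus the highest of WT-A in Pgc, in Derl3 and in Pdia2. It belongs to the pair set apart by GC content, which averaged higher than WT-A 1 and WT-A 2 in Derl3 and Pdia2. WT-A 4 was also the highest of WT-A in the parietal Atp4b (6949 CPM), the surface mucous Tff1 (10104) and the endocrine Chga (983). WT-A 1 was highest in the parietal Kcnj15 (605 CPM), and WT-A 3 in the surface mucous Muc5ac (4057). In TTP-A, replicates 2 and 3 were highest in Pgc (114767 and 136662 CPM), Derl3 and Pdia2. The S groups did not have this order throughout. TTP-S 3, the highest of TTP-S in Pgc (127988 CPM), was the lowest in Derl3 (7.07 CPM) and Pdia2 (682 CPM). WT-S 1, the lowest of WT-S in Pgc (73110 CPM), was the lowest in Pdia2 (665 CPM) but the highest in Derl3 (9.85 CPM). For Ero1lb, the libraries of WT-S had the same order as for Pgc, and replicates 2 and 3 were again the highest of TTP-A (54.5 and 60.9 CPM). Within WT-A and TTP-S the order differed, since WT-A 4 was at 31.2 CPM and WT-A 1 at 32.2, and TTP-S 1, the lowest of TTP-S in Pgc (120483 CPM), was the highest in Ero1lb (54.0 CPM). The part of the chief cell level in the differences of Derl3, Pdia2 and Ero1lb was not tested.

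Derl3 and Pdia2 are also known from plasma cells and from the pancreas. The plasma cell markers apart from Derl3 were low: of 7 listed, 3 others were in the table, with summed CPM of 0.165 to 8.90 in all libraries, and 1.48 to 8.90 in WT-S against 0.261 to 2.07 in WT-A. WT-S 1 had the sum of 8.90 CPM, most of it Jchain, the joining chain of secreted antibodies (8.68 CPM, against 1.40 to 2.90 in the other WT-S libraries and 0.217 to 1.91 in WT-A). Jchain, the 1 tested gene of this list, was called lower in WT-A (log2 -1.94, SE 0.60, edgeR adjusted p = 0.0354), but not in 14 libraries (-2.04, adjusted p = 0.0709). Tnfrsf17 was at 0 in all TTP-A libraries. Their part in the Derl3 result was not tested. Of the 13 pancreas markers, the defining enzymes Cpa1, Amy2a5, Prss2, Pnlip and Ctrb1 were at or near 0, at most 0.28 CPM in any library. Others were present at low levels, with Pnliprp1 at 34.2 to 54.9 CPM, Cela1 at 15.1 to 27.3 and Cel at 9.01 to 21.0 over the 16 libraries. The pancreas sum of 7522 to 18778 CPM was carried by the colipase Clps, which was called lower in WT-A (log2 -0.65, SE 0.18, edgeR adjusted p = 0.0233; 14 libraries -1.04). Within WT-A, Clps was highest in WT-A 4, like Pdia2. Of the other lists in WT, 3 of 8 mucous neck and SPEM genes, 2 of 4 macrophage genes, 3 of 4 smooth muscle genes and 1 of 7 squamous genes were called higher. Lower were 4 of 7 parietal genes and 1 of 5 endocrine genes. In 14 libraries, 3 mucous neck and SPEM genes, 1 macrophage gene, 0 smooth muscle genes and 2 squamous genes were called higher. Lower there were 6 parietal genes, 3 endocrine genes and 1 surface mucous gene.

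Marker genes were also called in the other comparisons. Between TTP-A and TTP-S, Muc6 (log2 2.13, edgeR adjusted p = 0.0352) and Gpx2 (0.83, 0.0369) of the mucous neck and SPEM list and Bhlha15 of the chief cell list were higher. The surface mucin Muc5ac (-1.04, 0.0228), the adipose gene Fabp4 (-0.68, 0.0208) and the elastase Cela1 (-0.46, 0.0352) were lower. All 6 were called in 14 libraries as well, and Tff1 and Adipoq were lower there too. Between TTP-A and WT-A, Chia1 (1.09, 0.027) and Bhlha15 of 5 chief cell genes and Kcne2 (0.38, 0.0372) and Kcnj15 (0.31, 0.0311) of 7 parietal genes were higher. Lower were Dmbt1 (-1.08, 0.0232) and Gpx2 (-0.98, 0.0176) of 8 mucous neck and SPEM genes, Des (-0.46, 0.0406) and Cnn1 (-0.45, 0.0403) of 4 smooth muscle genes, and Cela1 (-0.57, 0.0149). In 14 libraries, Pgc (1.19, 0.0201), Gif (0.75, 0.0126), Bhlha15, the parietal genes Atp4b and Clic6 and the colipase Clps were higher in TTP-A, and Dmbt1 and Cela1 lower. In the interaction, Dmbt1 was called (-2.00, 0.035), and in 14 libraries also Gif (0.94, 0.0238), Bhlha15 and Clps (1.11, 0.0107), beside the calls of Derl3 and Pdia2 there. Between TTP-S and WT-S none was called in 16 libraries, and in 14 Jchain was lower (-3.74, 0.0205) and Fabp4 higher (0.57, 0.0466). The part of these transcripts in the results of the ER genes was not tested.

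Beyond the set, a list of 105 symbols for other genes of the ER and the early secretory pathway was examined. Of these, 103 were in the count table and 101 were tested. Between WT-A and WT-S, 19 were called (6 higher, 13 lower), which is 18.8%, the same as over all genes, and 11 without the pair (10.9%, beside 10.5% of all genes). Among the called genes, the largest rises were in the p53 and stress effector Bbc3 (log2 0.73, adjusted p = 0.0254 by edgeR), the collagen folding isomerase Fkbp10 (0.62, 0.00406) and the chaperone Erp29 (0.53, 0.00115). Among the called genes, the largest falls were in the signal peptidase subunit Spcs3 (-0.61, 0.0262), the lectin Erlec1 (-0.59, 0.0194) and the oligosaccharyl transferase subunit Magt1 (-0.56, 0.00537). In 14 libraries the rises were 0.62 for Bbc3, no longer called (adjusted p = 0.125), 0.42 for Fkbp10 and 0.51 for Erp29. Spcs3 was there at -0.22, no longer called (adjusted p = 0.0542), Erlec1 at -0.23 and Magt1 at -0.33. In TTPΔARE mice 5 were called, all higher in TTP-A (4.95%, beside 2.9% of all genes, 1.55% higher). Those with the largest rise were the transcription factors Creb3l4 (1.001, 0.0294), Creb3l1 (0.75, 0.0365) and Bhlha15 (0.66, 0.039). Bhlha15 (MIST1), which scales the secretory apparatus of zymogenic cells, was at 40.1, 51.7, 42.7 and 38.0 CPM in WT-S and at 27.0, 30.4, 36.4 and 48.7 in WT-A. TTP-S had 48.0, 40.4, 35.8 and 36.8 CPM, and TTP-A had 61.4, 55.3, 77.1 and 61.7. Every TTP-A library exceeded every other library of the series. Bhlha15 is also on the chief cell list.

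Between genotypes, none of the 101 genes was called in condition S by edgeR (11 at an unadjusted p under 0.05, beside 7.49% of all genes). Calls by the other tools were not counted for this list. In condition A, 3 were called higher and 3 lower in TTP-A (5.94%, near the 5.17% of all genes). Bhlha15 (log2 0.84, edgeR adjusted p = 0.015), Magt1 (0.46, 0.0321) and Sec62 (0.23, 0.0465) were higher. The oxidase Qsox1 (-0.47, 0.0158), Erp29 (-0.41, 0.0126) and the transcription factor Creb3 (-0.26, 0.0451) were lower. Without the pair, Bhlha15 (1.15, adjusted p = 0.00277) and Erp29 (-0.39, 0.0366) were called, the other 4 were not, and Bhlha15 was called in the interaction (1.25, adjusted p = 0.0102; 16 libraries 0.94, adjusted p = 0.121).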

How the data were processed

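The authors deposited 1 table of whole-number read counts per gene symbol. The submitters' processing notes name STAR 2.7.0f, featureCounts, Subread 1.6.4, DESeq2 and the build mm10. Annotation, strandedness and filters are not given in the sources used here, so reads of overlapping genes may have been counted together. In GENCODE, the gene of the set with the largest exonic overlap with another gene in the table was Hsp90b1 (10.3% of its exonic bases).

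Per library, 17453930 to 25849472 counts and 17607 to 18377 detected genes were used, and groups came from the sample titles. Counts were fitted as deposited with edgeR 4.0.16 (R 4.3.3): filterByExpr, TMM scaling, then quasi-likelihood fits of group means to 16 libraries, with 4 pairwise contrasts and the interaction. P-values were adjusted by Benjamini-Hochberg over 15385 genes, and those under 0.05 are called. The 41 genes, the other lists, the motifs and the tests were chosen with earlier results of these data known. Genes called in any contrast were named, with up to 5 of the largest differences where fewer were called, and Hspa5 and some others were added after their values were seen.

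GC content and length came from the longest GENCODE M21 transcript of each gene. The fit was tested on simulated data. Over the 24 within-group pairs, chi-square over its degrees of freedom was 4.69 to 89.5, more than sampling noise, and every library was kept as a replicate. Alternatives were DESeq2 1.42.0 size factors and Wald test, limma 3.58.1 voom with sample weights, other filters, the replicate number as a block, 14 libraries, loess offsets on GC content (span 0.5), fits of only the groups compared, and leaving out each library.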

Additional observations from a re-analysis of the deposited data

Results flagged for a closer look

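In groups of 4, a library was set beside the others by Dixon's test, which compares its gap with the range of the group. Of 76 groups tested (the genes named by rule and Ero1lb, 19 in all, in 4 groups), 3 passed it, and chance passes about 1 in 20. Pdia5 was at 23.0 CPM in WT-A 3, against 20.6 to 20.7 in the other WT-A libraries. Pdia4 was at 141.3 CPM in WT-S 1, against 109.8 to 111.0 in the other WT-S libraries. Sec11c was at 70.9 CPM in WT-S 1, against 52.0 to 55.2.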

How the results depend on the processing

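The alternatives cover the counts of calls, Ero1lb and each gene named by rule in the comparison that named it, and none of those values changed direction. Among all 40 tested genes, 12 had the opposite sign in 14 libraries for WT-A against WT-S, 9 for TTP-A against WT-A and 9 for the interaction, and 0 of these were called in either fit. In WT they include Ero1l (-0.09 and 0.27), Pdia3 (-0.22 and 0.17) and Ssr3 (-0.38 and 0.02). Among them are genes named in another comparison, namely Sec11c in WT and in A, and Herpud1, Creld2 and Sec61b in the interaction. For WT-A against WT-S, the count of 10 called genes was 5 in 14 libraries (beside 10.5% of all genes), 6 with loess offsets on GC content (beside 16.5%) and 2 when fitted on those groups alone (beside 3.98%), where Derl3 and Herpud1 were called. For TTP-A against TTP-S, limma voom called 6 in place of 3, beside 15.2% of all genes, with Eif2ak3, Ern2 and Pdia4 added. For TTP-S against WT-S, the DESeq2 Wald test called 1 (beside 0.663%) and limma voom 1 (beside 1.14%) in place of 0. For TTP-A against WT-A, the count of 4 was 2 with no filter on low counts (beside 2.77%), 9 by the DESeq2 Wald test (beside 1636 of 14191 genes) and 0 when fitted on those groups alone, where 1 of all 15385 genes was called. For the interaction, the DESeq2 Wald test called 1 (beside 1.81%), limma voom 3 (beside 1.11%) and 14 libraries 2 (beside 0.286%) in place of 0. Fits without 1 library gave 3 to 16 calls in WT (beside 8.14% to 32.4% of all genes), 1 to 4 in TTPΔARE mice (0.39% to 6.14%), 0 to 0 between genotypes in S (0.0065% to 0.0975%), 0 to 14 in A (0.585% to 20.8%) and 0 to 2 in the interaction (0.013% to 1.5%). With the replicate number as a block, the TTP-A against WT-A count was 2 (Derl3 and Edem1, beside 4.06% of all genes) in place of 4, and the counts of the other comparisons were 10, 3, 0 and 0. Libraries with the same number correlated at -0.51 to 0.33 over 24 pairs, and 3 of 16 correlated best with their own number, so the numbers were not taken to pair the samples. Of the values of single genes, 361 kept their side of the threshold and their direction, 97 lost a call and 15 gained one. The log2 difference of Ero1lb in WT ran from -0.83 to -0.62 over 17 alternatives and its interaction from 0.74 to 0.95 over 24.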
